A study of Ovis aries with 19 samples.

Results

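The enzymes that add and remove chemical marks on histones and on DNA were followed in liver and muscle of female sheep. Genes were taken by name from the deposited table as the HDAC, SIRT, DNMT, TET, KDM, KMT, SETD, PRMT, KAT and EZH families, and kept where their mean normalized read count was at least 10 in liver or in muscle. Of 28524 gene identifiers 77 matched by name and 75 were kept, 38 writers (the DNMT, EZH, KAT, KMT, PRMT and SETD families) and 37 erasers (the HDAC, KDM, SIRT and TET families). The remaining pair, DNMT3L and PRMT8, stayed under the minimum in both tissues. A further gene, HDAC9, passed in muscle but not in liver, which left 74 genes tested in liver and 75 in muscle.

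Histone acetyltransferases (KAT) put acetyl groups on lysines from acetyl-CoA, and the zinc-dependent HDAC enzymes and the NAD-dependent sirtuins take them off. Lysine and arginine methyltransferases (KMT, SETD, EZH, PRMT) and DNA methyltransferases (DNMT) use S-adenosylmethionine, while the KDM demethylases and the TET dioxygenases, which oxidise methylcytosine, use oxygen, iron and oxoglutarate or a flavin. Acetylation and some methyl marks accompany active genes, whereas Polycomb methylation of histone H3 by EZH1 or EZH2 and DNA methylation accompany silent ones, so these enzymes are often looked at where an exposure before birth is studied for lasting effects. RNA levels, which are what was measured here, give neither enzyme activity nor the marks themselves.

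Bulk RNA was sequenced from animals exposed to excess testosterone before birth (labelled prenatal T) and from control animals. Liver gave 5 prenatal T and 4 control libraries and muscle gave 5 prenatal T and 5 control libraries, from 10 sheep. The same animals gave both tissues, except control sheep 132, whose liver was not analysed here. All animals were female; breed, age at sampling, and the dose and window of the exposure are not given in the sources used here.

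Each library held 10236610 to 16046301 counted reads in liver and 8455563 to 14331578 in muscle. The tissue labels were checked by ALB, the albumin gene, with no fewer than 112956 normalized reads in any liver and no more than 16.2 in any muscle. ACTA1, the skeletal muscle actin gene, had no fewer than 154279 in any muscle and no more than 9.12 in any liver. Values are normalized read counts, scaled by the authors within each tissue. They compare a gene across libraries of a tissue but do not compare genes with each other, since transcript lengths were not used. In bulk tissue, fewer cells of a type and less RNA per cell cannot be told apart.

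The first question was whether exposure moved the enzymes in liver. No member of either class differed past the test in liver. KDM1B, a flavin-dependent demethylase of histone H3 known in mouse oocytes for the setting of maternal imprints, stood highest among them, with more RNA in all 5 prenatal T livers than the control mean. Writers and erasers otherwise lay on both sides of 0, with 37 members above and 37 below.

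In numbers, 0 of 74 members had a limma adjusted p under 0.05 (Benjamini-Hochberg over all genes), against 0.00733% of the 13640 genes tested. At an unadjusted p under 0.05 there was 1 member, 1.35%, against 3.99% of all genes; it was a higher one, as were 1.82% of all genes. edgeR's quasi-likelihood test and DESeq2 on the recovered reads also called 0 members. In no member were the prenatal T and control values fully apart, against 1.54% of all genes (0.858% with treated higher, 0.682% with treated lower). The median log2 fold change, on the log2(value + 1) scale that understates changes of low genes, was -0.0068 over the members and 0.0032 over all genes. Members above 0 were thus 37 of 74, beside 50.4% of all genes.

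KDM1B had 992, 793, 690.3, 1081 and 933 normalized reads in livers of prenatal T sheep 48, 63, 185, 233 and 255. It had 324, 501, 824 and 453 in livers of control sheep 98, 131, 179 and 201. Control sheep 179 lay inside the treated range, and the other 3 control livers lay below every treated one. The means were 898 ± 156 in prenatal T and 525 ± 213 in control livers (SD, n = 5 and 4), a log2 fold change of 0.84 ± 0.28 (SE) with a limma unadjusted p of 0.0106 and an adjusted p of 0.935. With DESeq2 the adjusted p was 0.539 and with edgeR 0.93. In muscle KDM1B averaged 464 ± 29.3 in prenatal T and 525 ± 50.7 in control libraries (SD, n = 5 each), a log2 value of -0.17 with a limma adjusted p of 0.499.

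Among liver writers SETD3, which methylates a histidine of actin rather than a histone, came next by unadjusted p. Its values were 715, 915, 691, 477 and 774 in prenatal T livers and 951, 988, 911 and 910.4 in control livers. The highest treated library, sheep 63, reached just past the lowest controls. The log2 fold change was -0.43 ± 0.22, with a limma unadjusted p of 0.0818 and an adjusted p of 0.999. SETDB2, a SET-domain methyltransferase of histone H3, had 315, 343, 253, 339 and 225 in prenatal T livers and 273, 254, 240.5 and 179 in control livers. In this gene 3 treated livers lay above every control, and the log2 value was 0.32 with a limma adjusted p of 0.999.

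Among liver erasers KDM4B, a demethylase of histone H3, had 86.1, 133, 182, 153 and 92.1 normalized reads in prenatal T livers and 244, 191, 106 and 190.3 in control livers. Of the control livers 3 were above every treated one, and sheep 179 was near the low end of the treated range. SIRT4, a mitochondrial sirtuin, had 169.8, 123, 91.7, 187 and 163 in prenatal T livers and 107, 119, 130.2 and 84.6 in control livers. HDAC1, the catalytic subunit of several nuclear corepressor complexes, had 805, 786, 1124, 838 and 893 in prenatal T livers and 751, 801, 703 and 688 in control livers. In HDAC1 the treated liver of sheep 63 alone lay inside the control range. The log2 fold changes of KDM4B, SIRT4 and HDAC1 were -0.49, 0.38 and 0.26, with limma unadjusted p-values of 0.143, 0.186 and 0.212 and adjusted p-values of 0.999.

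The enzymes most often named in work on early exposures gave no call in liver. The maintenance methyltransferase DNMT1 had 76.7, 70.6, 175, 115 and 52.0 normalized reads in prenatal T livers and 158, 105, 46.4 and 102 in control livers, which overlap over nearly their whole range. The de novo methyltransferase DNMT3A had 169.8, 187, 348, 151 and 145 in prenatal T livers and 304, 196, 143 and 204 in control livers. Both had limma adjusted p-values of 0.999, with log2 values of -0.08 and -0.11. EZH2, the Polycomb methyltransferase of dividing cells, was low, with 16.5, 18.5, 54.6, 30.0 and 5.42 in prenatal T livers and 45.3, 21.3, 26.5 and 14.5 in control livers. Its lowest and highest libraries were both treated ones, sheep 255 and 185.

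SIRT1, the nuclear NAD-dependent deacetylase, had 237, 154, 145, 227 and 224 normalized reads in prenatal T livers and 159.7, 169, 294 and 125 in control livers. PRMT1, the main asymmetric arginine methyltransferase, had 231, 304, 456, 488 and 170.1 in prenatal T livers and 313, 271, 244 and 260.4 in control livers. KDM1A, the paralogue of KDM1B, had 235, 236, 277, 280.5 and 177 in prenatal T livers and 244, 244, 202 and 209 in control livers. Treated and control livers overlapped in all 3 genes, and PRMT1 was spread more widely among the treated livers than among the controls.

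**Figure D1:**
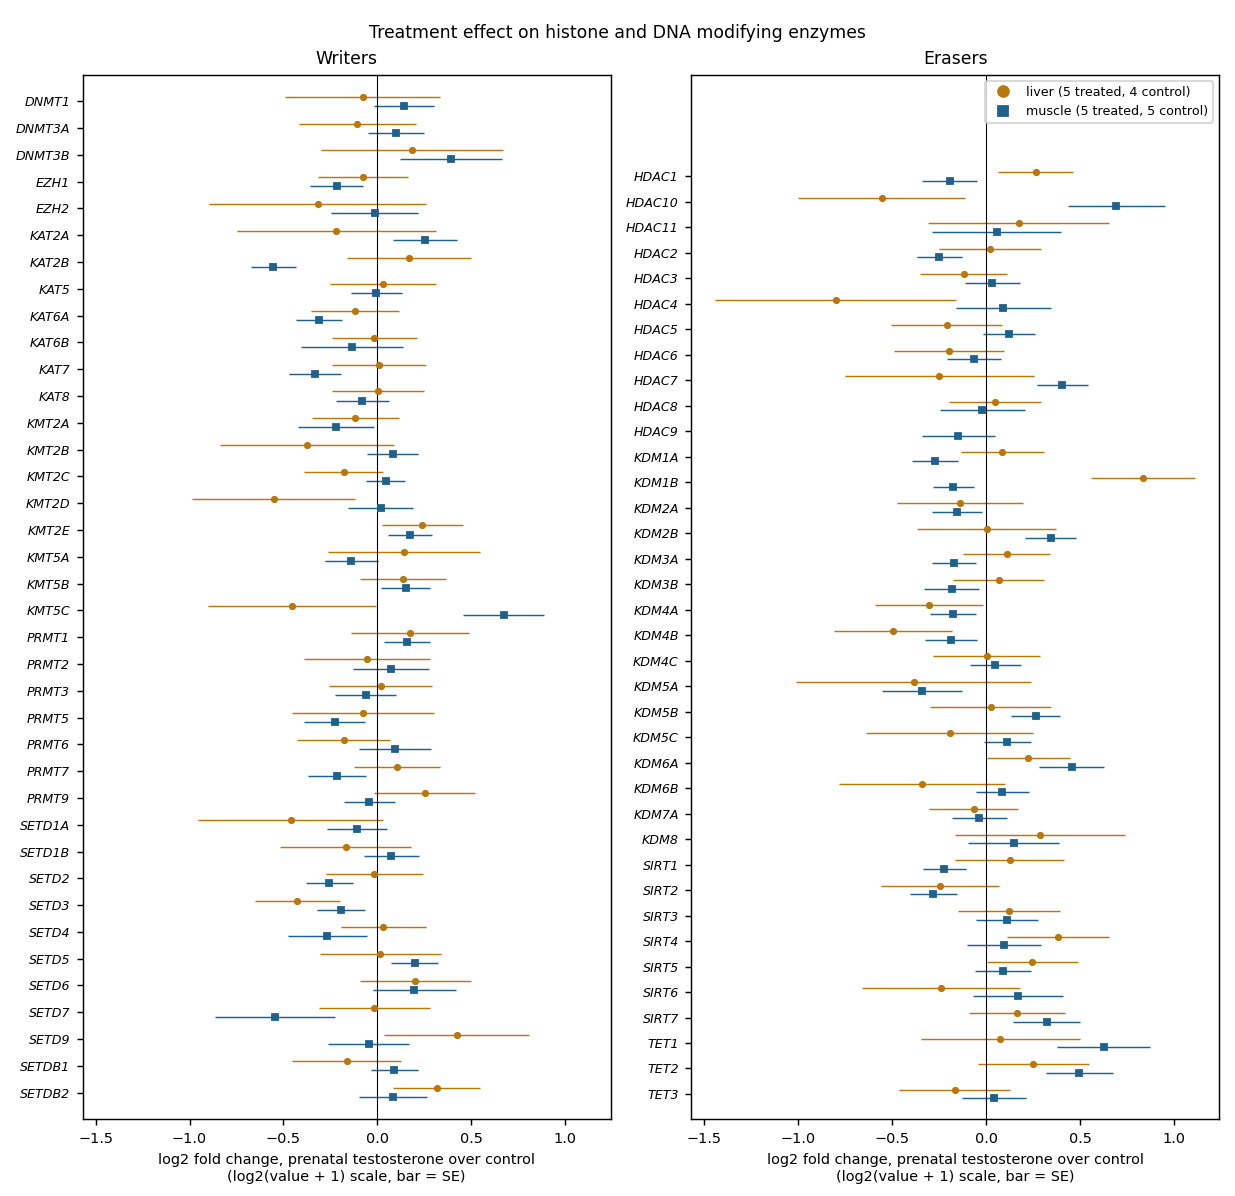
Log2 fold change of each member, prenatal testosterone over control, on the log2(value + 1) scale (horizontal axis), for writers in the left panel and erasers in the right panel. Circles are liver (5 prenatal T, 4 control libraries), squares are muscle (5 and 5), and bars are the standard error. Among those farthest from 0 are KDM1B (0.84) and HDAC4 (-0.80) in liver and KAT2B (-0.55), HDAC10 (0.69) and KMT5C (0.67) in muscle. No member passed the adjusted threshold.

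The same question in muscle again gave no call by the main test. KAT2B (PCAF), an acetyltransferase of histone H3 that also acetylates the myogenic factor MYOD1, was lower in all 5 prenatal T muscles than in every control muscle. HDAC7, a class IIa deacetylase, and KMT5C, a methyltransferase of histone H4 at heterochromatin, were higher in all 5 prenatal T muscles than in every control muscle. TET1, TET2 and KDM6A had treated means above the controls, while the acetyltransferases KAT6A and KAT7 had treated means below them.

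The limma test called 0 of 75 members in muscle, against 0.00771% of 12966 genes. At an unadjusted p under 0.05 it held 12 members, or 16%, against 14.4% of all genes, so the members' share was near the background. Of these 7 were higher, 9.33% against 7.37%, and 5 were lower, 6.67% against 7%. The groups were fully apart for 3 members, or 4%, against 3.29% of all genes. The treated libraries were higher in 2 of them, against 1.76% of all genes, and lower in 1, against 1.53%. The median log2 fold change was 0.03 over members and -0.01 over all genes, and 39 of 75 members were above 0, beside 48.4% of all genes. By edgeR's quasi-likelihood test 0 members were called. By DESeq2 1 member was called, KAT2B, where that tool called 2% of all genes.

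KAT2B had 2915, 3247, 3114, 2963 and 3869.8 normalized reads in muscles of prenatal T sheep 48, 63, 185, 233 and 255. It had 4989, 4871, 4202, 4594 and 4916 in muscles of control sheep 98, 131, 132, 179 and 201. Every treated value was below every control value. The means of 3222 ± 385 in prenatal T and 4714 ± 323 in control muscles (SD, n = 5 each) gave a log2 fold change of -0.55 ± 0.12, with a limma unadjusted p of 0.00042 and an adjusted p of 0.13. The edgeR adjusted p was 0.123 and the DESeq2 adjusted p 0.000932. Leaving out each muscle library in turn kept the value between -0.62 and -0.52, with limma adjusted p-values of 0.0857 to 0.287. A second gene's span overlaps KAT2B in the RefSeq sheep table, and without the strand setting their reads cannot be told apart.

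Of the 7 KAT genes 6 lay below 0 in muscle, KAT2B among them, beside 6696 of all 12966 genes. In liver 3 of the 7 lay below 0, and the family was not tested as a set. One of the 6 in muscle, KAT5, was at -0.0052, and its sign turned under TMM scaling, with edgeR (0.0076) and with DESeq2 (0.0072). KAT6A had 522 ± 60.2 in prenatal T and 648 ± 73.4 in control muscles, a log2 value of -0.31, and KAT7 had 847 ± 177 and 1052 ± 83.3 in prenatal T and control, a value of -0.33. Both had limma unadjusted p-values under 0.05, 0.0257 and 0.0323, and adjusted p-values of 0.285 and 0.308. KAT2A, the close paralogue of KAT2B, lay above 0, at 306 ± 51.9 in prenatal T and 258 ± 54.7 in control muscles, with a log2 value of 0.25 and a limma adjusted p of 0.519.

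KMT5C had 49.7, 50.2, 62.5, 52.0 and 49.5 normalized reads in prenatal T muscles and 39.7, 43.3, 24.2, 36.0 and 24.6 in control muscles. The groups did not overlap, and 4 of the 5 treated values lay between 49.5 and 52.0. The log2 fold change was 0.67 ± 0.21, with a limma unadjusted p of 0.00757 and an adjusted p of 0.2. Of the other muscle writers, SETD7 stood farthest below 0 after KAT2B, with 976, 1159, 818, 649 and 2117 in prenatal T muscles and 1885, 911, 1708, 1091 and 2630.4 in control muscles. Its log2 value of -0.54 had a limma adjusted p of 0.463, and prenatal T sheep 255 lay above 4 of the 5 controls.

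Among muscle erasers HDAC7 had 558, 635, 814, 538 and 495 normalized reads in prenatal T muscles and 465, 462, 423, 470.2 and 443 in control muscles. The control values were tight and all lay below the lowest treated one. The log2 fold change was 0.40 ± 0.14, with a limma unadjusted p of 0.0104 and an adjusted p of 0.217. HDAC7 overlaps SLC48A1 and other genes in the RefSeq table, which the counts cannot set apart. HDAC10, a deacetylase known to act on polyamines, had 44.6, 42.1, 76.3, 33.2 and 47.6 in prenatal T muscles and 31.8, 21.6, 38.5, 22.1 and 32.8 in control muscles. Treated sheep 233 fell inside the control range, and the log2 value was 0.69 ± 0.26 with a limma adjusted p of 0.26.

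The TET family, which starts the removal of DNA methylation, had 3 of 3 members above 0 in muscle, beside 48.4% of all genes. In liver 2 of the 3 lay above 0, and the family was not tested as a set. TET2 had 626, 629, 468, 790.5 and 558 in prenatal T muscles and 473, 421, 286, 495 and 514 in control muscles. The lowest treated value, that of sheep 185, lay among the controls. The log2 fold change was 0.50 ± 0.18, with a limma unadjusted p of 0.0149 and an adjusted p of 0.247. TET1 averaged 90.0 ± 23.0 in prenatal T and 58.9 ± 16.8 in control muscles (log2 value 0.63, limma adjusted p 0.285), while TET3 averaged 49.3 ± 7.44 and 47.5 ± 3.41 in prenatal T and control muscles, a value of 0.04. DNMT1 had 129, 206, 189, 179 and 171 in prenatal T muscles and 147, 124, 162, 173 and 183 in control muscles, with overlapping groups. The 3 DNMT genes were also above 0, at 0.10 for DNMT3A, 0.14 for DNMT1 and 0.39 for DNMT3B, with limma adjusted p-values of 0.539 or more.

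Of the demethylases in muscle KDM6A, which removes the Polycomb mark from histone H3, had 826, 1029, 748, 1301 and 1069 in prenatal T muscles and 583, 697, 589.7, 834 and 915 in control muscles. The treated and control ranges overlapped between 748 and 915. The log2 value was 0.45 ± 0.17, with a limma adjusted p of 0.27. KDM2B, which binds unmethylated CpG islands, averaged 214 ± 18.9 in prenatal T and 169 ± 25.4 in control muscles (0.34). Its values were 204, 219, 194, 209 and 244 in prenatal T and 155, 152, 210, 179 and 152 in control muscles. KDM1A had 476, 497, 513, 451 and 624 in prenatal T muscles and 600.4, 559, 682, 570.0 and 674 in control muscles (-0.27), so that 4 treated muscles lay below every control. SIRT2, a sirtuin mainly of the cytoplasm, averaged 1889 ± 268 in prenatal T and 2282 ± 183 in control muscles (-0.28). The limma unadjusted p-values of these 3 genes were 0.0238, 0.0412 and 0.0407 and the adjusted ones 0.28, 0.33 and 0.328. SIRT1 had 187, 179, 172, 181 and 176 in prenatal T muscles and 211, 183, 212, 212 and 228 in control muscles, a value of -0.22 with a limma adjusted p of 0.396. The treated values were tight, and sheep 48 alone lay above the lowest control.

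Other well-known members showed no separation in muscle. KMT2D had 1479, 2226, 1804, 2044 and 1817 normalized reads in prenatal T muscles and 2409, 1834, 1209, 1907 and 2047 in control muscles, and KDM6B had 203, 234, 248, 247 and 195 in prenatal T and 251, 248, 178, 203 and 186 in control muscles. EZH2 had 35.5, 51.8, 84.3, 54.5 and 68.0 in prenatal T and 60.5, 45.5, 49.5, 62.7 and 71.1 in control muscles. Their log2 values of 0.02, 0.09 and -0.01 had limma adjusted p-values of 0.972, 0.821 and 0.981; the sign of EZH2 turned under TMM scaling, to 0.0041. EZH1, at 1694, 2300.0, 1581, 1618 and 2123 in prenatal T and 2504, 1948, 2027, 1884 and 2403 in control muscles, had a value of -0.22 (adjusted p 0.507).

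**Figure D2:**
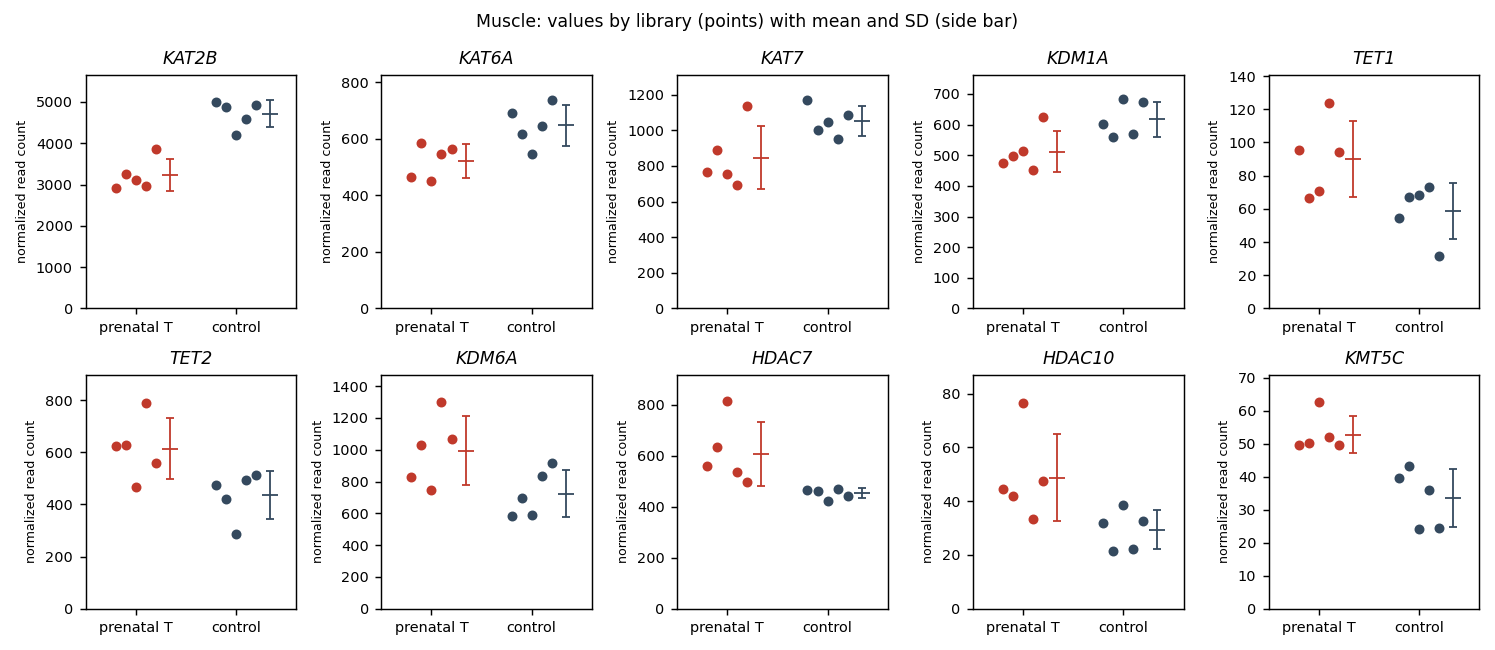
Normalized read counts in muscle by library (points) for the acetyltransferases KAT2B, KAT6A and KAT7, the erasers KDM1A, TET1, TET2, KDM6A, HDAC7 and HDAC10, and the writer KMT5C, prenatal T on the left and control on the right of each panel; side bars give the mean and SD (n = 5 each). The 5 treated values of KAT2B (2915 to 3869.8) lie under the 5 control values (4202 to 4989), those of HDAC7 and KMT5C lie above them, and the other panels overlap.

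Marker lists of other cells were summed in the same libraries. No marker passed the adjusted threshold in either tissue, and the lists were not tested as sets. Over all genes in muscle, 7.37% were higher and 7% lower at an unadjusted limma p under 0.05. In liver these shares were 1.82% and 2.17%. Values above 0 made up 48.4% of all genes in muscle and 50.4% in liver. Satellite cell markers (5 of 5 above 0, 3 of 5 at an unadjusted limma p under 0.05, none at 0) summed to 344 to 625 normalized reads in prenatal T muscles and 154 to 347 in control muscles. PAX7, the satellite cell transcription factor, averaged 43.5 ± 16.2 in prenatal T and 15.1 ± 7.20 in control muscles. Adipocyte markers (5 of 5 below 0, 3 at a p under 0.05) summed to 457 to 1097 and 955 to 2339 in prenatal T and control muscles. Contractile fibre markers (8 of 8 below 0, none at a p under 0.05) summed to 817022 to 1313630 in prenatal T and 1265320 to 1476340 in control muscles, and T and NK cell markers (8 of 8 above 0, 1 at a p under 0.05) to 209 to 369 in prenatal T and 174 to 252 in control muscles. In liver T and NK cell markers (9 of 9 above 0, 2 at a p under 0.05) summed to 388 to 757 in prenatal T and 287 to 457 in control libraries. B cell markers, of which 2 of 6 were high enough to test and 1 was lower at a p under 0.05, summed to 25.9 to 46.7 in prenatal T and 67.8 to 100.3 in control livers. Adipocyte markers in liver (3 of 3 tested below 0, 2 at a p under 0.05) summed to 82.4 to 280.3 in prenatal T and 179 to 469 in control libraries. Skeletal muscle markers in liver (3 of 3 tested below 0, 1 at a p under 0.05) summed to 142 to 241 in prenatal T and 213 to 317 in control livers. The one, the giant sarcomere protein NEB, averaged 16.1 ± 7.30 in prenatal T and 54.9 ± 11.9 in control livers, a log2 value of -1.80 with a limma unadjusted p of 0.00078 and an adjusted p of 0.835. Endothelial markers in muscle (5 of 6 below 0, 1 at a p under 0.05) summed to 2287 to 4051 in prenatal T and 2944 to 4414 in control muscles. Of 8 hepatocyte markers 1 was high enough to test in muscle and was lower at a p under 0.05, with sums of 20.2 to 46.9 in prenatal T and 29.0 to 70.4 in control muscles. Macrophage, fibroblast and cholangiocyte markers in both tissues, hepatocyte, endothelial and satellite cell markers in liver and B cell markers in muscle had none at a p under 0.05. Proliferation markers (1 of 13 lower at a p under 0.05 in liver, 0 of 9 in muscle) summed to 908 to 1316 in prenatal T and 962 to 1068 in control livers, and to 1297 to 1724 and 1194 to 1617 in prenatal T and control muscles. The part of these shifts in the values of the enzymes was not tested.

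Whether exposure acted differently on a member in the 2 tissues was asked by subtracting the muscle effect from the liver effect in a model of the 19 libraries. The model took the libraries as independent, although 9 of the 10 sheep gave both tissues. No member passed, and with the sheep as a block 0 members were called as well. The test called 0 of 74 members by limma, edgeR and DESeq2 alike, against 0.00855% of 11697 genes by limma. At an unadjusted p under 0.05 there were 4 members, 5.41%, against 4.9% of all genes. The liver effect was the higher in 2 of these, beside 2.34% of all genes, and the lower in 2, beside 2.56%. Over all members the difference lay above 0 in 36 of 74, beside 51.4% of all genes. KDM1B had the lowest p, with a liver effect above its muscle effect by 1.01 ± 0.28 on the log2 scale, a limma unadjusted p of 0.00171 and an adjusted p of 0.624. HDAC10 and KMT5C went the other way, with differences of -1.25 and -1.13, and KAT2B had 0.72. The limma unadjusted p-values of these 3 were 0.0256, 0.0329 and 0.0445, and their adjusted p-values were 0.939, 0.963 and 0.973. HDAC10 averaged 101 ± 33.1 in prenatal T and 165 ± 79.2 in control livers, and KAT2B averaged 892 ± 409 in prenatal T and 760.4 ± 210.1 in control livers.

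The genes around the enzymes were counted from lists of their complex partners, of other histone and DNA modifying enzymes and of enzymes of their donors and cofactors. None of these genes passed the adjusted threshold in either tissue. At an unadjusted limma p under 0.05, the share over all genes was 7.37% higher and 7% lower in muscle, and 1.82% higher and 2.17% lower in liver. Among 31 tested partners of writers 3 were higher and 2 lower in muscle at that level, 9.68% and 6.45%, near those shares, and 0 in liver. The higher ones were CXXC1, which brings the SETD1 complexes to CpG islands (517 ± 97.7 in prenatal T and 361 ± 43.3 in control muscles), KANSL2 and TRRAP, both parts of acetyltransferase complexes. Among 26 tested partners of erasers 0 were higher and 2 (7.69%) lower in muscle, MBD2 (log2 value -0.44), a reader of methylated DNA, and SAP18 (-0.32), part of an HDAC complex. Among 27 other writers tested in muscle 2 (7.41%) were lower, the arginine methyltransferase CARM1 (-0.36) and the lysine methyltransferase SMYD2 (-0.32). Among 14 genes listed as other erasers 1 was higher and 1 lower in muscle (7.14% each). These were the arginine deiminase PADI2 (1.76) and HIF1AN (-0.47), an asparaginyl hydroxylase rather than an eraser of histone or DNA marks. In liver 1 was higher (7.14%), the demethylase ALKBH1 (0.47).

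The list of donor and cofactor enzymes, which also holds AHCY and makers of NAD, gave the lowest p-values of these lists. In muscle 5 of 26 were lower at an unadjusted limma p under 0.05, 19.2% against 7% of all genes, and 0 were higher. In liver 4 of 29 were lower, 13.8% against 2.17% of all genes, and 0 were higher. The list was chosen with earlier results of these data known and was not tested as a set, so its shares only describe it. NAMPT, the rate-limiting enzyme of NAD salvage on which sirtuins depend, averaged 1772 ± 307 in prenatal T and 3223 ± 652 in control muscles, a log2 value of -0.86 with a limma unadjusted p of 0.000212 and an adjusted p of 0.119. NMNAT1, the nuclear NAD-making enzyme, averaged 725 ± 161 and 1029 ± 94.3 in prenatal T and control muscles, with a limma adjusted p of 0.189. AHCY, which clears the S-adenosylhomocysteine that inhibits methyltransferases, averaged 4492 ± 1408 in prenatal T and 9192 ± 1821 in control livers, a log2 value of -1.06 with a limma unadjusted p of 0.00191 and an adjusted p of 0.865. In muscle AHCY averaged 1040 ± 417 in prenatal T and 1521 ± 264 in control libraries, a value of -0.62 with an adjusted p of 0.265. In liver ACSS2, which makes acetyl-CoA from acetate, averaged 168 ± 27.7 in prenatal T and 257 ± 59.2 in control libraries (-0.61).

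The clearest differences among the enzymes were between the tissues. For this comparison the reads were recovered from the deposited values and scaled over all 19 libraries together, and a gene was called at a limma adjusted p under 0.05 and a log2 difference of at least 1. More of the enzymes were called higher in muscle than higher in liver, in treated and in control sheep. The muscle side held the class IIa deacetylases HDAC4, HDAC5 and HDAC9, the methyltransferases SETD7, EZH1 and KMT2A and the acetyltransferases KAT2B and KAT7. The liver side held HDAC1, HDAC10, TET3, KDM2B, SIRT4, SIRT7 and SETDB2, the last at 1.24 in prenatal T and at 1.01 in control sheep, next to the limit. Library numbers in the labels run in separate blocks for each tissue, so that numbering and the tissue cannot be told apart.

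In prenatal T sheep 38 of 75 members were called, against 56.3% of 14909 genes. In control sheep 32 of 75 were called, against 56%. Libraries were taken as independent here too. With the sheep as a block 38 members were called in prenatal T and 33 in control sheep. In treated sheep 9 members were higher in liver, beside 30% of all genes, and 29 higher in muscle, beside 26.3%. In control sheep 7 were higher in liver, beside 30.3%, and 25 higher in muscle, beside 25.7%. The median liver minus muscle difference on the log2 scale was -0.72 in prenatal T and -0.66 in control sheep over the members, and 0.04 and 0.05 over all genes. Only 20 members in prenatal T and 21 in control sheep lay above 0, beside 51.2% and 51.1% of all genes. At an adjusted p under 0.05 of any size 51 members in prenatal T and 52 in control sheep were called, 68% and 69.3%, beside 70.2% and 68.9% of all genes. Called in both groups of sheep with the same direction were 30 members, 40%, against 50.1% of all genes. Of these 7 were higher in liver, 9.33% against 27.2%, and 23 higher in muscle, 30.7% against 22.9%. Writers made up 1 of the 7 and 14 of the 23.

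By family, the same calls are to be read against those shares of 27.2% of all genes for liver and 22.9% for muscle; differences between families were not tested. Of 7 KAT genes 4 were called higher in muscle in both groups of sheep and 0 higher in liver, and all 7 lay below 0. The 8 KMT genes gave 4 called higher in muscle and 0 in liver. The 16 KDM genes gave 5 in muscle and 1 in liver, the 11 HDAC genes 3 in muscle and 2 in liver, and the 11 SETD genes 2 in muscle and 1 in liver. Of 7 sirtuins 2 were called higher in liver, SIRT4 and SIRT7, and 1 in muscle, SIRT2. The 3 TET genes gave TET3 in liver and none in muscle.

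SETD7, a lysine methyltransferase of histone H3 and other proteins, had 28.2 to 46.9 jointly scaled reads in prenatal T livers and 598 to 1950 in their muscles. In control sheep it had 33.4 to 50.5 in liver and 856 to 2456 in muscle. Every muscle library exceeded every liver library, and the mean was 25.9-fold higher in muscle of treated and 36.9-fold higher in muscle of control sheep. The log2 differences of -4.56 ± 0.29 in prenatal T and -5.09 ± 0.30 in control sheep had limma adjusted p-values of 4.14e-09 and 3.97e-09.

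HDAC9, a class IIa deacetylase that binds MEF2 factors in muscle, was close to the counting floor in liver. It had 1.27, 4.62, 2.17, 6.86 and 3.51 jointly scaled reads in prenatal T livers and 58.4, 113, 75.9, 90.2 and 104 in prenatal T muscles. It had 3.48, 2.09, 0 and 0 in control livers and 113, 109.8, 82.0, 107 and 77.9 in control muscles. In all 23 reads were counted in the 9 livers, so the log2 differences of -4.35 and -5.66 depend on the added pseudocount of 1. Its relatives HDAC4 and HDAC5 were also called higher in muscle in both groups of sheep. HDAC7, of the same class, was called in prenatal T sheep alone, at 2.23-fold higher in muscle, against 1.54-fold in control sheep. HDAC4 averaged 15.9 ± 18.0 in prenatal T livers and 176 ± 58.8 in prenatal T muscles, against 22.5 ± 11.3 and 166 ± 53.2 in control livers and muscles (log2 differences -3.81 ± 0.51 and -2.92 ± 0.37, limma adjusted p 1.16e-05 and 9.45e-06).

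The Polycomb methyltransferases both lay on the muscle side. EZH1, the form of non-dividing cells, had 213 to 354 in prenatal T livers and 1475 to 2155 in prenatal T muscles. In control sheep it had 206 to 321 in liver and 1751 to 2401 in muscle. The liver and muscle ranges were far apart, with log2 differences of -2.75 ± 0.19 in prenatal T and -2.89 ± 0.19 in control sheep and limma adjusted p-values of 9.5e-09 and 1.32e-08. EZH2 differed less, by -1.28 in prenatal T and -0.98 in control sheep (limma adjusted p 0.0288 and 0.0171), and so was called in treated sheep alone, past a size limit that the control value just missed. The call changed with single libraries: in treated sheep it was lost without any 1 of 5 of the 10 libraries (livers of sheep 48, 63 and 255, muscles of sheep 185 and 255) and with edgeR, and in control sheep it was gained without any 1 of 4 of the 9. The difference of both effects was not past the test (limma adjusted p 0.983). DNMT3A was 3.12-fold higher in muscle of prenatal T and 2.74-fold higher in muscle of control sheep. KMT2D, a methyltransferase of histone H3 at enhancers, averaged 454 ± 315 in prenatal T livers and 1735 ± 273 in prenatal T muscles, and 651 ± 326 and 1768 ± 427 in control livers and muscles.

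KAT2B was higher in muscle in both groups of sheep. It averaged 956 ± 447 in prenatal T livers and 2981 ± 358 in prenatal T muscles, and 819.6 ± 216 and 4427 ± 341 in control livers and muscles. The log2 differences were -1.74 ± 0.26 in prenatal T and -2.47 ± 0.20 in control sheep, with limma adjusted p-values of 3.33e-05 and 1.47e-07.

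On the liver side TET3, a methylcytosine dioxygenase, had 218, 163, 298, 118 and 217 jointly scaled reads in prenatal T livers and 39.9, 42.5, 45.4, 57.3 and 42.9 in prenatal T muscles. It had 286, 205, 167 and 239 in control livers and 42.8, 49.8, 45.1, 43.2 and 42.1 in control muscles. Every liver lay above every muscle, with log2 differences of 2.07 ± 0.26 in prenatal T and 2.28 ± 0.22 in control sheep and limma adjusted p-values of 6.5e-06 and 8.66e-07. KDM2B was 2.95-fold higher in liver of prenatal T and 3.63-fold higher in liver of control sheep. SIRT4 was 2.96-fold and 2.35-fold higher in liver, in prenatal T and control sheep.

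HDAC10 averaged 108 ± 34.5 in prenatal T livers and 45.2 ± 15.4 in prenatal T muscles, against 178 ± 85.8 and 27.6 ± 6.87 in control livers and muscles. Control sheep 179, at 52.2 in liver, was far below the other 3 control livers, which lay between 198 and 239.8. KDM1B was called higher in liver in prenatal T sheep, by 1.14 ± 0.16 (limma adjusted p 2.6e-05), and was at 0.13 ± 0.24 (adjusted p 0.649) in control sheep. Both were among the genes for which the difference of effects, given above, did not pass after adjustment.

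**Figure D3:**
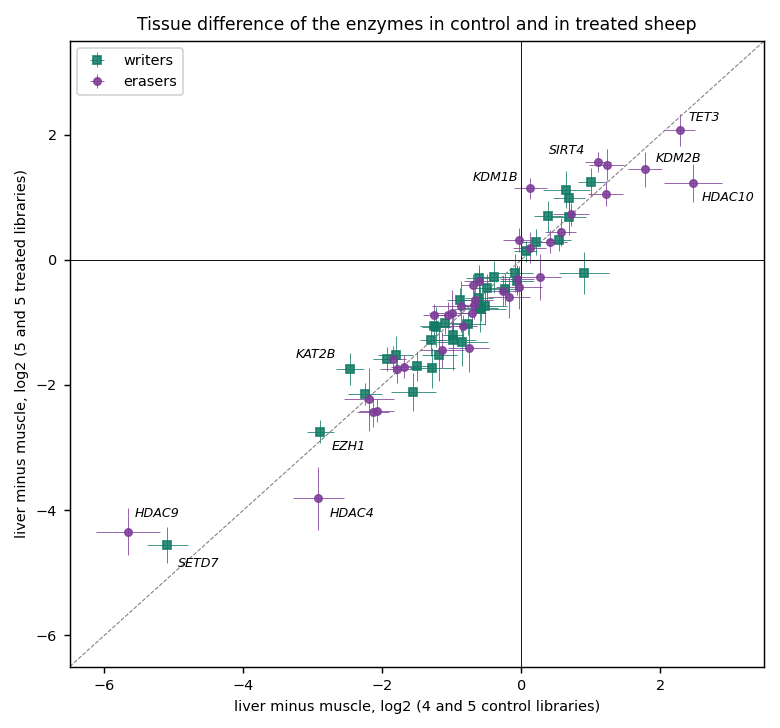
Liver minus muscle difference of each member on the log2 scale of jointly scaled reads, in prenatal T sheep (vertical axis, 5 livers and 5 muscles) and control sheep (horizontal axis, 4 and 5); squares are writers, circles are erasers, bars are standard errors and the dashed line marks equal differences. Most members lie below 0 on both axes, HDAC9 and SETD7 lie lowest, TET3 and HDAC10 lie at the upper right, and KDM1B lies at 1.14 in prenatal T and near 0 in control sheep.

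The enzymes varied more between livers than between muscles of the same group. The SD between sheep of the same group, on the log2 scale, was larger in liver for 65 of 74 members, 87.8%, and for 80.8% of the 11697 genes tested in both tissues. The members' median SD was 0.43 in liver and 0.23 in muscle, and that of the same 11697 genes was 0.49 and 0.29. KDM5A, a demethylase of histone H3, varied most among the members in liver, with an SD of 1.14, followed by HDAC4 (1.06), EZH2 (0.97), KAT2A (0.96) and HDAC7 (0.91). In muscle the widest were HDAC11 (0.67), SETD7 (0.63) and KAT6B (0.52).

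Some livers held the highest or lowest value more often than others. The liver of prenatal T sheep 185 had the highest value of the 9 in 25 of 74 members, 33.8%, against 16.9% of all genes. Prenatal T sheep 255 and control sheep 179 had the lowest value in 18 members each, 24.3%, against 17% and 16.2% of all genes. Counting both ends, sheep 255 was highest in a further 10 members and sheep 179 in 7, while sheep 185 was lowest in 3. KMT2D had 295, 268, 963, 340.4 and 267 normalized reads in livers of prenatal T sheep 48, 63, 185, 233 and 255, and 923, 379.6, 317 and 782 in control livers. KDM6B, the other demethylase of the Polycomb mark, had 88.4, 108, 337, 133 and 80.2 in prenatal T livers and 273, 158, 83.8 and 191 in control livers. In KMT2D 4 treated livers lay near or below the lowest control, at 317. In KDM6B the same 4 ran from 80.2 to 133, where the lowest controls were 83.8 and 158. In both genes sheep 185 lay above every control.

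HDAC4 in liver had 3.54, 7.61, 45.3, 9.63 and 8.67 in prenatal T livers and 31.7, 15.5, 9.12 and 26.7 in control livers. Its log2 fold change of -0.80 was the lowest of the members in liver, with a limma adjusted p of 0.999. With each library left out it ran from -1.31 to -0.47. The ratio of the treated to the control mean was 0.721 with sheep 185 and 0.355 without it. The same library moved the ratio of SETD1A, a methyltransferase of histone H3 at promoters, to 0.567 without it, against 0.854 with it. Sheep 185 also had the lowest ALB value of the livers, 112956, while sheep 255 had the highest, 1212100. The part of that in the enzymes' values was not tested.

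**Figure D4:**
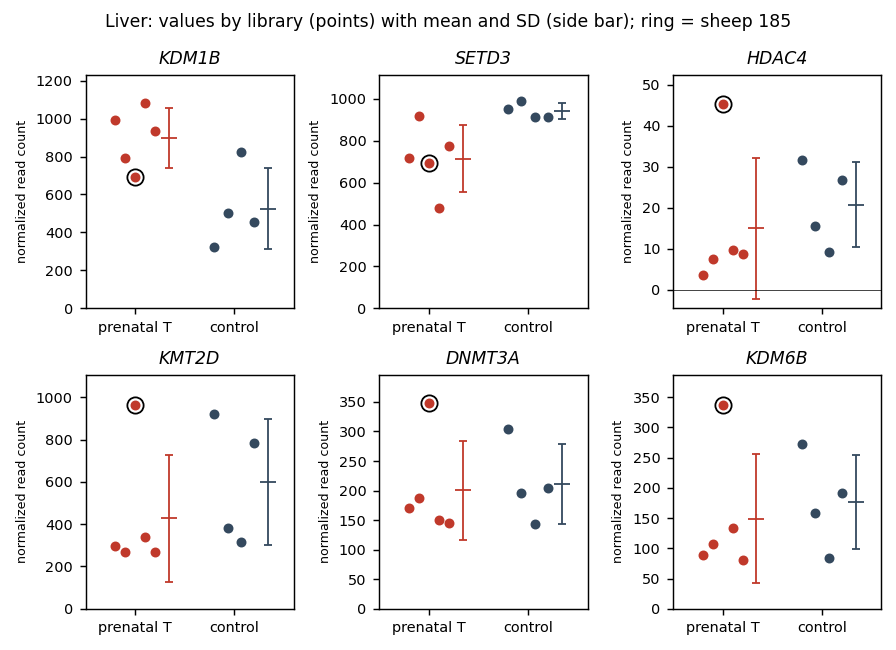
Normalized read counts in liver by library (points) for KDM1B, SETD3, HDAC4, KMT2D, DNMT3A and KDM6B, prenatal T on the left and control on the right of each panel; side bars give the mean and SD (n = 5 and 4) and the ring marks prenatal T sheep 185. Sheep 185 is the highest library in HDAC4 (45.3), KMT2D (963), DNMT3A (348) and KDM6B (337) and the lowest treated library in KDM1B (690.3).

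**Figure D5:**
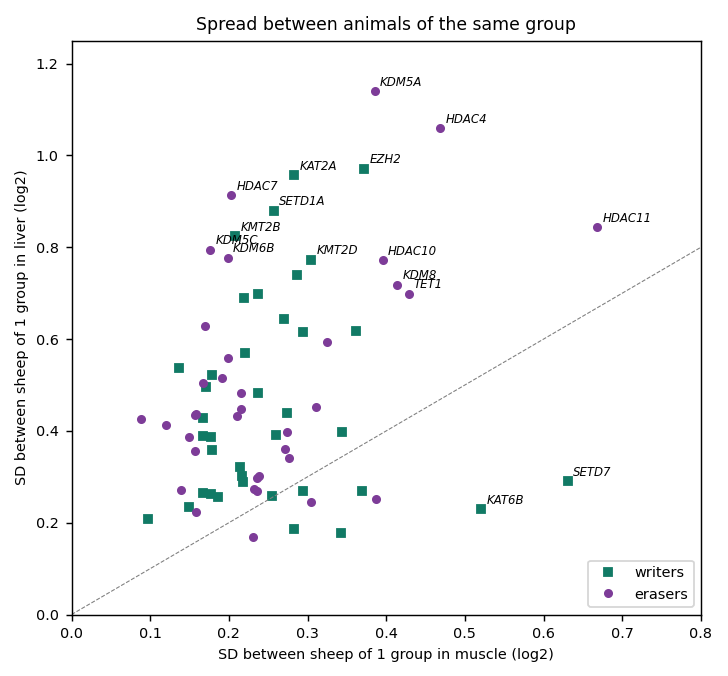
SD between sheep of the same group on the log2 scale, in liver (vertical axis) and muscle (horizontal axis), with squares for writers, circles for erasers and a dashed line where both are equal. Of 74 members 65 lie above the line, with KDM5A (1.14) and HDAC4 (1.06) highest in liver and HDAC11 (0.67) and SETD7 (0.63) farthest right.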

How the data were processed

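TruSeq libraries were prepared from total RNA, per the labels' protocols. The submitters' processing notes name Trimmomatic (a read trimmer), STAR (an aligner) and featureCounts 1.6.1 (a read counter). Build, annotation and strand setting are not given in the sources used here. Signal as deposited by the authors is a normalized read count per gene, whose scaling matched median-of-ratios factors recomputed within each tissue. In each library 100% of the values were whole multiples of 1 read within 0.01 read. Libraries of a group differed beyond sampling noise in all 36 pairs (chi-square over its degrees of freedom never below 19.4).

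Genes with a mean of at least 10 were tested on log2(value + 1) with limma 3.58.1 (R 4.3.3, mean-variance trend, two-sided, Benjamini-Hochberg over all genes). Tissues were compared on jointly scaled recovered reads (median of ratios). edgeR 4.0.16 and DESeq2 1.42.0 on recovered reads, TMM scaling, other filters (none, or a mean of 50), other pseudocounts (0.25 or 4), a block for the sheep and leaving out each library were alternatives. The code was tested on simulated data. The sheep pairs both tissues: deviations from group means correlated within a sheep at 0.103 to 0.349 (median 0.177), over 0.1 in 9 of 9, and at a median of -0.0194 between sheep.

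The members with the lowest p per test or the largest tissue differences and 12 preset genes, 26 in all, were chosen for values by library, given in at least 1 tissue; others are named in passing. Members and lists were chosen with earlier results of these data known. All 75 members matched a symbol in the RefSeq table of ARS-UI_Ramb_v3.0, used for names and neighbours, and 29 overlap another gene's span. Of the 26 these are DNMT3A, HDAC4, HDAC7, HDAC9, KAT2B, KDM6A, SETDB2 (with RCBTB1), SIRT1 (with HERC4), SIRT4 and TET3. Reads of overlapping genes cannot be told apart in them without the strand setting.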

Additional observations from a re-analysis of the deposited data

Results flagged for a closer look

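The values of the 26 named genes were looked at in each group, 104 groups of values in all, for a library far from the rest of its own group. Dixon's test was used, which sets the gap to the nearest value against the range of the group. It was run on normalized read counts, not on the log2 scale, and 8 were found, each the highest of its group. Chance sets apart about 5% of independent groups of normally distributed values. Whether that share holds for these counts was not tested. In liver 4 of the 8 belonged to prenatal T sheep 185. It had 45.33 normalized reads of HDAC4, where the next highest treated liver had 9.634. It had 348.2 of DNMT3A, with 186.9 next, 336.9 of KDM6B, with 132.7 next, and 963.3 of KMT2D, with 340.4 next. In muscle prenatal T sheep 63 had 1044 of KDM4B, with 770.9 next, and prenatal T sheep 185 had 62.52 of KMT5C, with 51.96 next. Prenatal T sheep 233 had 62.18 of TET3 in muscle, with 48.7 next. Among control muscles sheep 179 had 157.9 of SETDB2, with 132 next. No cause of these values was tested.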

How the results depend on the processing

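No member was called for exposure under any alternative run, except KAT2B in muscle by DESeq2 (1 member). In liver the 1 gene called among all genes became 0 at a mean of at least 50, 32 by DESeq2 and 9 in 1 fit of all libraries. In muscle the 1 gene became 0 with a pseudocount of 0.25 or a mean of at least 50 and 259 by DESeq2 (164 higher, 95 lower), and 0 to 4 with each library left out. For the difference between tissues the 1 gene became 0 with a pseudocount of 4, with no filter or with the sheep as a replicate block, 14 by DESeq2, and 0 to 1 with each sheep left out. The replicate block turned no named gene's sign. Between the tissues 36 to 39 of 75 members were called in prenatal T and 31 to 37 in control sheep, and 34 to 38 and 30 to 36 with each library left out. There SETDB2 in control sheep fell under the log2 limit of 1 with the block (0.999), the deposited scaling (0.80) or a pseudocount of 4 (0.989) and without any of 7 of the 9 libraries, and HDAC1 with the deposited scaling (0.90). EZH2 in prenatal T sheep lost its call with edgeR (adjusted p 0.0609) and without any of 5 of the 10 libraries (-1.63 to -0.86, adjusted p 0.00423 to 0.0722 over all 10), and KDM6A without either of 2. In control sheep EZH2 gained a call with the block (-1.03), the deposited scaling (-1.17) and without any of 4 of the 9 libraries (-1.26 to -0.74 over all 9). KMT5C gained a call in control sheep without either of 2 libraries (0.71 to 1.26 over all 9). Apart from leaving out libraries, a named gene gained a call in 4 of 156 pairs of gene and setting in control sheep, those of EZH2 among them. In prenatal T sheep it was 1 of 156. Under the deposited scaling KDM1B in prenatal T sheep also lost its call (0.93).

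Apart from leaving out libraries, signs turned among the 26 genes named by rule for KDM2B in liver under TMM scaling (-0.019); EZH2 in muscle under TMM (0.0041), edgeR (0.041) and DESeq2 (0.043); PRMT1 for the difference of effects under TMM (-0.024); and, in control sheep between tissues, KDM1B with the deposited scaling (-0.076) and SIRT1 with edgeR (0.056). Among the other members signs turned in liver for 6 with TMM and 7 each with edgeR and DESeq2, in muscle for 1, 2 and 2, and for the difference of effects for 5, 7 and 5, and 3 with the block. Between tissues they turned for HDAC8 and KMT2E with the deposited scaling in both groups, and in control sheep for PRMT6 with the block and SIRT6 with edgeR. Of these the farthest from 0 in the main test stood 0.19 from it. With each library left out the liver effect ran from -0.20 to 0.0091 for EZH1, -0.41 to 0.17 for DNMT1, -0.33 to 0.084 for DNMT3A, -0.20 to 0.26 for KDM2B, -0.11 to 0.10 for SETD7, -0.062 to 0.34 for KAT2B, -0.044 to 0.37 for SIRT1, -0.33 to 0.010 for TET3, -0.61 to 0.058 for HDAC7 and -0.67 to 0.10 for EZH2. The muscle effect ran from -0.16 to 0.15 for EZH2, -0.054 to 0.28 for HDAC4, -0.13 to 0.11 for KMT2D, -0.019 to 0.19 for SIRT4, -0.074 to 0.18 for SETDB2 and -0.043 to 0.083 for TET3. The difference of effects ran from -0.59 to 0.050 for DNMT1, -0.22 to 0.28 for PRMT1, -0.040 to 0.26 for EZH1, -0.37 to 0.053 for TET3 and -0.63 to 0.18 for EZH2. In control sheep the tissue difference ran from -0.27 to 0.12 for SIRT1, -0.11 to 0.33 for KDM1B, -0.42 to 0.15 for KDM6B and -0.21 to 0.14 for TET2. The causes were not tested. With 4 or 5 sheep a group and a liver SD of 0.43, small differences could not be detected.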
